A study of Mus musculus with 12 samples.

Results

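The genes described here encode the WNT ligands, their frizzled receptors and co-receptors, and the proteins that release the ligands from the producing cell. Members were found by symbol in the deposited expression table: every Wnt or Fzd gene with a number, together with Lrp5, Lrp6, Ror1, Ror2, Ryk, Wls and Porcn. The rule found 36 of the 19150 genes in the table, namely 19 ligands, 10 frizzleds, 2 LRP co-receptors, 3 other receptors and 2 secretion genes. Transcript levels came from RNA sequencing of 6 cell populations that had been sorted by flow cytometry from the dorsal skin of CD1 mice, an outbred strain, on postnatal day 5, when hair follicles are growing. No group carried a transgene or treatment according to the labels, and each population had 2 libraries, 12 in all. The populations are dermal sheath (the mesenchymal cup and sleeve around the follicle), dermal papilla (the mesenchymal cluster at its base), dermal fibroblasts, outer root sheath and matrix (both follicle epithelium) and melanocytes. The sort gates are not given in the sources used here, and nothing in the labels ties the paired libraries to separate mice, so p-values cover only how far paired libraries differ, and that may be technical.

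WNT ligands are secreted lipid-modified proteins. Porcn attaches the lipid in the endoplasmic reticulum and Wls carries the modified ligand to the cell surface. At the receiving cell a frizzled together with Lrp5 or Lrp6 stabilises beta-catenin, while frizzleds acting with Ror1, Ror2 or Ryk engage beta-catenin-independent branches, for which Wnt5a and Wnt11 are the best known ligands. In skin, WNT signalling is required to form hair follicles and to drive the matrix and papilla during hair growth.

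Ligand genes often lie side by side in the genome, and 4 pairs of ligand genes lay within 100 kb of each other. In the pairs Wnt3a with Wnt9a and Wnt10b with Wnt1 the genes are read away from each other, with 16.18 kb and 11.71 kb between them. Wnt9b and Wnt3 are also read away from each other, 24.33 kb apart, but Wnt3 was not called higher in 1 population than in each of the other 5. In each of the first 2 pairs, 1 gene was higher in 1 population than in each of the other 5 and its neighbour was at or near 0 in all 12 libraries, so their promoters are shown side by side. The sequences are RefSeq windows on GRCm38.p6, the assembly behind mm10, from 250 bases before to 50 bases after the transcript start, each written 5′ to 3′ along its own gene. CG dinucleotides, the sites of DNA methylation, are in capitals. The Wnt9a window lies at chr11:59306680-59306979 on the plus strand and the Wnt3a window at chr11:59290702-59291001 on the minus strand. The Wnt10b window lies at chr15:98778101-98778400 on the minus strand and the Wnt1 window at chr15:98789607-98789906 on the plus strand.
Wnt9a: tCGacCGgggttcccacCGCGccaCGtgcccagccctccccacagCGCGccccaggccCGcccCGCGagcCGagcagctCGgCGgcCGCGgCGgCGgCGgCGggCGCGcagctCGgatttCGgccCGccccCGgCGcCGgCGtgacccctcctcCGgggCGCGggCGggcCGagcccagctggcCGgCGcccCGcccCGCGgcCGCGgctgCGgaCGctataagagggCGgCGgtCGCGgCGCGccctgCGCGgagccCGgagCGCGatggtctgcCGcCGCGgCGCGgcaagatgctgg
Wnt3a: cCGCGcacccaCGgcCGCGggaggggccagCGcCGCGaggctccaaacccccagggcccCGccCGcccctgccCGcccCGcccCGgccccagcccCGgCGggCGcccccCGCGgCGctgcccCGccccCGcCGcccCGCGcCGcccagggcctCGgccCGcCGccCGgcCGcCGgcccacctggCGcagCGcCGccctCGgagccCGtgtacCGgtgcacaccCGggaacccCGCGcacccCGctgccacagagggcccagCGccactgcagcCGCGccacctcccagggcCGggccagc
Wnt10b: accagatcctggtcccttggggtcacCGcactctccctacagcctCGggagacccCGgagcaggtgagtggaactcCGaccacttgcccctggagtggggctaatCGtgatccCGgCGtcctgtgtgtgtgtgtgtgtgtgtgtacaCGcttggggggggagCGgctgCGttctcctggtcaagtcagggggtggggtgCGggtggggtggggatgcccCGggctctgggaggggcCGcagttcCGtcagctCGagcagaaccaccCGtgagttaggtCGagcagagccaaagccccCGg
Wnt1: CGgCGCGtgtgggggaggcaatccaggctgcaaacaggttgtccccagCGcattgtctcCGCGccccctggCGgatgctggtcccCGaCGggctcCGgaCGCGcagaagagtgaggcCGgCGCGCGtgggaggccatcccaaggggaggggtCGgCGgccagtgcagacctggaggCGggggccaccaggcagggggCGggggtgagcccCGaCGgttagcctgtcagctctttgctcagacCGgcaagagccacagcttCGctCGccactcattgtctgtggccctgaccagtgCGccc

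The Wnt9a window holds 58 CG dinucleotides and that of Wnt3a 45, while Wnt10b has 18 and Wnt1 has 26. RefSeq windows were matched for 25 of the 36 members (28 windows), with a median of 30 CG dinucleotides against 7 over all 32851 windows. The letters TCAAAG, a core that TCF and LEF factors bind, were searched on both strands and occurred in 4 of the 28 windows (those of Fzd1, Ror1, Wnt11 and Wnt5b), against 16.0% of all windows. These matches describe the letters only. The gene of a pair with transcripts was not the one with more CG in every case, since Wnt9a had more than its neighbour Wnt3a and Wnt10b fewer than its neighbour Wnt1.

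Levels are FPKM, fragments mapped per length of transcript and per depth of library. They allow for length and depth, but sums over all genes differed between libraries, so comparisons between genes and libraries are approximate. The number of reads behind the levels is unknown and precision rests on the 2 libraries alone. Summed FPKM ran from 373066 to 524040 over the 12 libraries. Marker lists followed the labels of sheath, papilla and epithelium. The 5 sheath markers summed to 1148 and 1768 FPKM in sheath and to at most 137 elsewhere. The 6 papilla markers summed to 6107 and 4063 in papilla and to at most 382 elsewhere. The 10 keratinocyte markers summed to 2004 to 5008 in the epithelial libraries and to 116 to 356 in the others. The 7 hair matrix and shaft markers found summed to 679 and 704 in matrix and 166 and 163 in outer root sheath. They also summed to 207 and 181 in papilla, 140 and 110 in fibroblasts, 84.0 and 135 in melanocytes and 38.9 and 40.1 in sheath. Lef1 alone was at 76.7 and 119 FPKM in melanocytes, most of the sum there, and at 101 and 104 in papilla. The 6 outer root sheath markers summed to 4339 and 4228 in outer root sheath, 1548 and 1169 in matrix and at most 302 elsewhere. The fibroblast libraries went against a pure label. Their 10 melanocyte markers, all detected, summed to 7895 and 7437 FPKM, against 17129 and 14400 in melanocytes and 25.6 to 110 in the other 8 libraries, with Oca2 at 0 in 1 outer root sheath and 1 matrix library and Sox10 at 0 in both matrix libraries. Matrix libraries held 431 to 503 FPKM summed over 8 mesenchyme markers, most of it Dcn (407 and 482), against 1600 to 14831 in the dermal libraries. The called differences of the members from fibroblasts were therefore recomputed after the melanocyte share had been subtracted, and these values are given together after the comparisons. No share of matrix RNA was subtracted, and its part in the fibroblast levels was not tested. In sorted bulk RNA, fewer cells of a type and less RNA per cell cannot be told apart.

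Wnt5a was the most abundant ligand transcript in 10 of 12 libraries. It made up 73.5% and 82.6% of the ligand sum in papilla, 42.3% and 57.1% in matrix, and 28.3% to 46.6% in sheath, fibroblasts and outer root sheath. In melanocytes it made up 1.63% and 2.80%, and Wnt4 supplied 83.7% and 84.6%. The summed level of all 19 ligands was 120.6 and 146 FPKM in papilla and 149 and 154 in matrix, above every other library. It was 59.4 to 65.1 in sheath and fibroblasts, 63.9 and 39.9 in outer root sheath, and 27.2 and 25.3 in melanocytes. The second ligand differed between populations: Wnt9a in both sheath libraries, Wnt5b in both papilla libraries and Wnt4 in fibroblasts, outer root sheath and matrix.

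**Figure D1:**
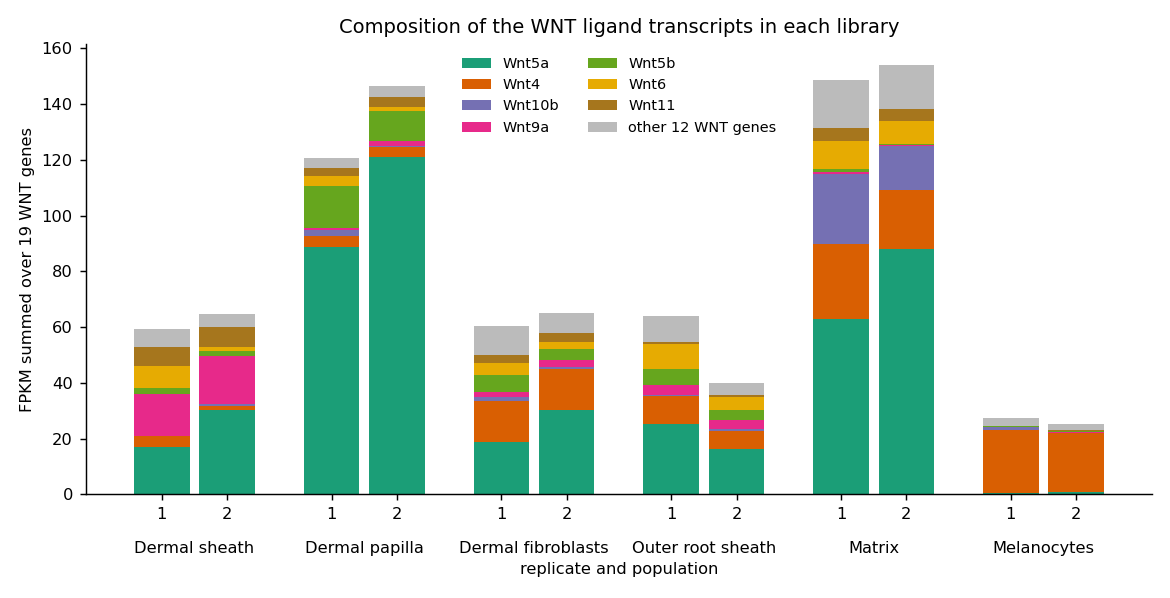
Stacked bars give the FPKM of the 19 ligand genes in each of the 12 libraries (x axis, replicate and population; y axis, summed FPKM from 0), with 7 ligands coloured and the other 12 pooled in grey. Papilla and matrix bars reach 120.6 to 154 FPKM, and Wnt5a is the largest segment everywhere except in melanocytes, where Wnt4 is.

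Among the 19 ligands, 8 had a mean of at least 5 FPKM in some population, 6 peaked between 1 and 5 FPKM, and 5 stayed under 1 FPKM. Wnt5a (chr14:28504750-28527448, plus strand), the prototype of the beta-catenin-independent ligands, stood at 16.8 and 30.1 FPKM in dermal sheath, 88.7 and 121 in papilla, 18.8 and 30.3 in fibroblasts, 25.0 and 16.1 in outer root sheath, 62.9 and 87.8 in matrix, and 0.444 and 0.707 in melanocytes. Both papilla libraries were above all others, the lower of them only just above the higher matrix library, and sheath, fibroblasts and outer root sheath overlapped. On the log2(FPKM + 1) scale used for all tests, which understates differences of low genes, papilla exceeded fibroblasts (log2 2.07 ± 0.35, adjusted p = 0.00179) (± SE; limma with Benjamini-Hochberg adjustment over all genes tested, as for every adjusted p given). Sheath was below papilla by the same measure (-2.15 ± 0.35, adjusted p = 0.00133), and outer root sheath below matrix (-1.84 ± 0.35, adjusted p = 0.00884). The last call was lost without outer root sheath replicate 2 or without matrix replicate 2. In this limma fit, which has no replicate term, papilla and matrix were not distinguishable (0.47 ± 0.35, adjusted p = 0.3; 95% confidence interval -0.31 to 1.25). Nor were sheath and fibroblasts (-0.08 ± 0.35, adjusted p = 0.942; 95% confidence interval -0.86 to 0.70). Within each replicate number, however, Wnt5a was higher in papilla than in matrix (88.7 against 62.9 and 121 against 87.8 FPKM). With the replicate block Wnt5a was not called there either, but a call needs a log2 difference of at least 1. In the matrix libraries the 6 papilla markers summed to 2.76 and 1.27 FPKM, with Sox2 and Rspo4 at 0 in both, so the papilla markers were nearly absent there. The 8 mesenchyme markers summed to 503 and 431 FPKM in the same libraries, most of it Dcn (482 and 407). Vim came next (13.6 and 16.2), and Col1a1 was at 1.51 and 1.99 FPKM. The part of mesenchymal RNA in the Wnt5a level was not tested. Of the annotated exon bases of Wnt5a, 4.58% overlap an antisense gene, and since strand use is not stated, reads of overlapping genes cannot be told apart.

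Wnt5b (chr6:119432531-119544347, minus strand), the close relative of Wnt5a, shared the papilla peak but not the matrix level, with 2.25 and 1.82 FPKM in dermal sheath, 15.3 and 10.99 in papilla, 6.08 and 3.85 in fibroblasts, 5.91 and 3.27 in outer root sheath, 1.11 and 0.449 in matrix, and 0.384 and 0.209 in melanocytes. The 2 papilla libraries lay above all others, and those of matrix and melanocytes lay lowest. Papilla exceeded matrix (log2 3.00 ± 0.34, adjusted p = 3.61e-05) and sheath was below papilla (log2 -2.21 ± 0.34, adjusted p = 0.00086). The difference between papilla and fibroblasts was smaller (1.25 ± 0.34, adjusted p = 0.0263) and its call was lost without either papilla library, without fibroblast replicate 2, and after melanocyte subtraction with rescaling.

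Wnt9a (chr11:59306928-59333552, plus strand), a ligand known from joint and heart valve development, was highest in sheath, with 14.95 and 17.5 FPKM in dermal sheath, 0.729 and 1.76 in papilla, 1.98 and 2.54 in fibroblasts, 3.33 and 3.30 in outer root sheath, 0.588 and 0.315 in matrix, and 0.231 and 0.385 in melanocytes. The 2 sheath libraries were above all others without overlap. Sheath exceeded fibroblasts (log2 2.40 ± 0.29, adjusted p = 0.00015), papilla (log2 2.98 ± 0.29, adjusted p = 3.58e-05) and outer root sheath (log2 1.99 ± 0.29, adjusted p = 0.0002). Its neighbour Wnt3a did not exceed 0.144 FPKM in any library.

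Wnt10b (chr15:98770712-98778150, minus strand), a beta-catenin-activating ligand of growing hair follicles, marked the matrix, with 0 and 0.631 FPKM in dermal sheath, 2.17 and 0.348 in papilla, 1.30 and 0.604 in fibroblasts, 0.393 and 0.774 in outer root sheath, 25.1 and 16.0 in matrix, and 0.831 and 0.0494 in melanocytes. No library outside matrix exceeded 2.17 FPKM. Outer root sheath was below matrix (log2 -3.75 ± 0.45, adjusted p = 0.000692), and papilla was below matrix (log2 -3.35 ± 0.45, adjusted p = 0.000121). Its neighbour Wnt1 was listed at 0 in all 12 libraries. Wnt10a, which in humans is mutated in ectodermal dysplasias, also peaked in matrix but was less restricted, with 0.339 and 0.224 FPKM in dermal sheath, 1.44 and 0.372 in papilla, 4.01 and 1.80 in fibroblasts, 3.01 and 1.27 in outer root sheath, 7.56 and 4.89 in matrix, and 0 and 0 in melanocytes. It exceeded the papilla level in matrix (log2 papilla minus matrix -1.96 ± 0.39, adjusted p = 0.00185), and fibroblasts and outer root sheath overlapped. Wnt6, its neighbour 6.19 kb away on the same strand, was at 7.598 and 1.40 FPKM in dermal sheath, 3.39 and 1.32 in papilla, 4.15 and 2.80 in fibroblasts, 8.86 and 4.68 in outer root sheath, 10.3 and 8.10 in matrix, and 0 and 0 in melanocytes. The replicates of Wnt6 disagreed most in sheath, where 1 library was as high as outer root sheath and the other as low as papilla, and both melanocyte libraries were at 0.

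Wnt4 (chr4:137277489-137299726, plus strand), needed for kidney and ovary development, stood at 4.28 and 1.49 FPKM in dermal sheath, 3.82 and 3.62 in papilla, 14.6 and 14.7 in fibroblasts, 10.4 and 6.66 in outer root sheath, 26.8 and 21.2 in matrix, and 22.8 and 21.4 in melanocytes. Matrix and melanocytes overlapped at the top, outer root sheath and fibroblasts lay between, and papilla lay within the range of sheath. Papilla was below matrix (log2 -2.40 ± 0.35, adjusted p = 0.000209), and sheath was below outer root sheath (log2 -1.36 ± 0.35, adjusted p = 0.00825), a call lost without sheath replicate 2 or outer root sheath replicate 1 and with a pseudocount of 5 FPKM. The melanocyte level was not that of the other matrix ligands, since Wnt6 and Wnt10a were at 0 in both melanocyte libraries and Wnt10b was at most 0.831 FPKM.

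Wnt11, the other classical beta-catenin-independent ligand, was at 6.87 and 6.96 FPKM in dermal sheath, 2.99 and 3.62 in papilla, 3.14 and 2.91 in fibroblasts, 0.692 and 0.908 in outer root sheath, 4.39 and 4.51 in matrix, and 0 and 0.503 in melanocytes. Sheath was highest and outer root sheath and melanocytes lowest, and no library of sheath overlapped another population. Sheath exceeded outer root sheath (log2 2.14 ± 0.27, adjusted p = 7.57e-05), and outer root sheath was below matrix (log2 -1.60 ± 0.27, adjusted p = 0.00434). An antisense pseudogene overlaps 8.80% of its exon bases.

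Of the 6 ligands that peaked between 1 and 5 FPKM, Wnt8a, known from the early embryo, was a matrix transcript with 4.51 and 4.30 FPKM there and at most 0.257 FPKM in the other 10 libraries. It entered the tests only through the matrix libraries, where it had to be high, so its call in matrix adds nothing to these levels. Wnt3 had its highest values in matrix, where the libraries differed widely (1.19 and 4.17 FPKM), and in fibroblasts (1.91 and 2.22). Wnt16 was found in fibroblasts (1.78 and 1.96) and sheath (1.98 and 0.707), and was at most 0.223 FPKM elsewhere. Wnt2 was present in the same dermal pair (1.28 and 1.62 in sheath and 1.01 and 0.485 in fibroblasts) and was at most 0.0585 elsewhere. Wnt7b, a ligand of skin epithelium, peaked in outer root sheath (2.24 and 1.11). Wnt16 would not have passed the filter without its fibroblast libraries, nor Wnt2 without those of sheath or Wnt7b without those of outer root sheath. Their calls in favour of these populations therefore add nothing to the levels. Wnt2b ran from 0.811 to 3.15 FPKM over the 12 libraries with no population apart from all others. None of its 15 pairs of populations was called in limma, and 0 had an unadjusted p under 0.05. Wnt1, Wnt3a, Wnt7a, Wnt8b and Wnt9b had means under 1 FPKM in all 6 populations.

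**Figure D2:**
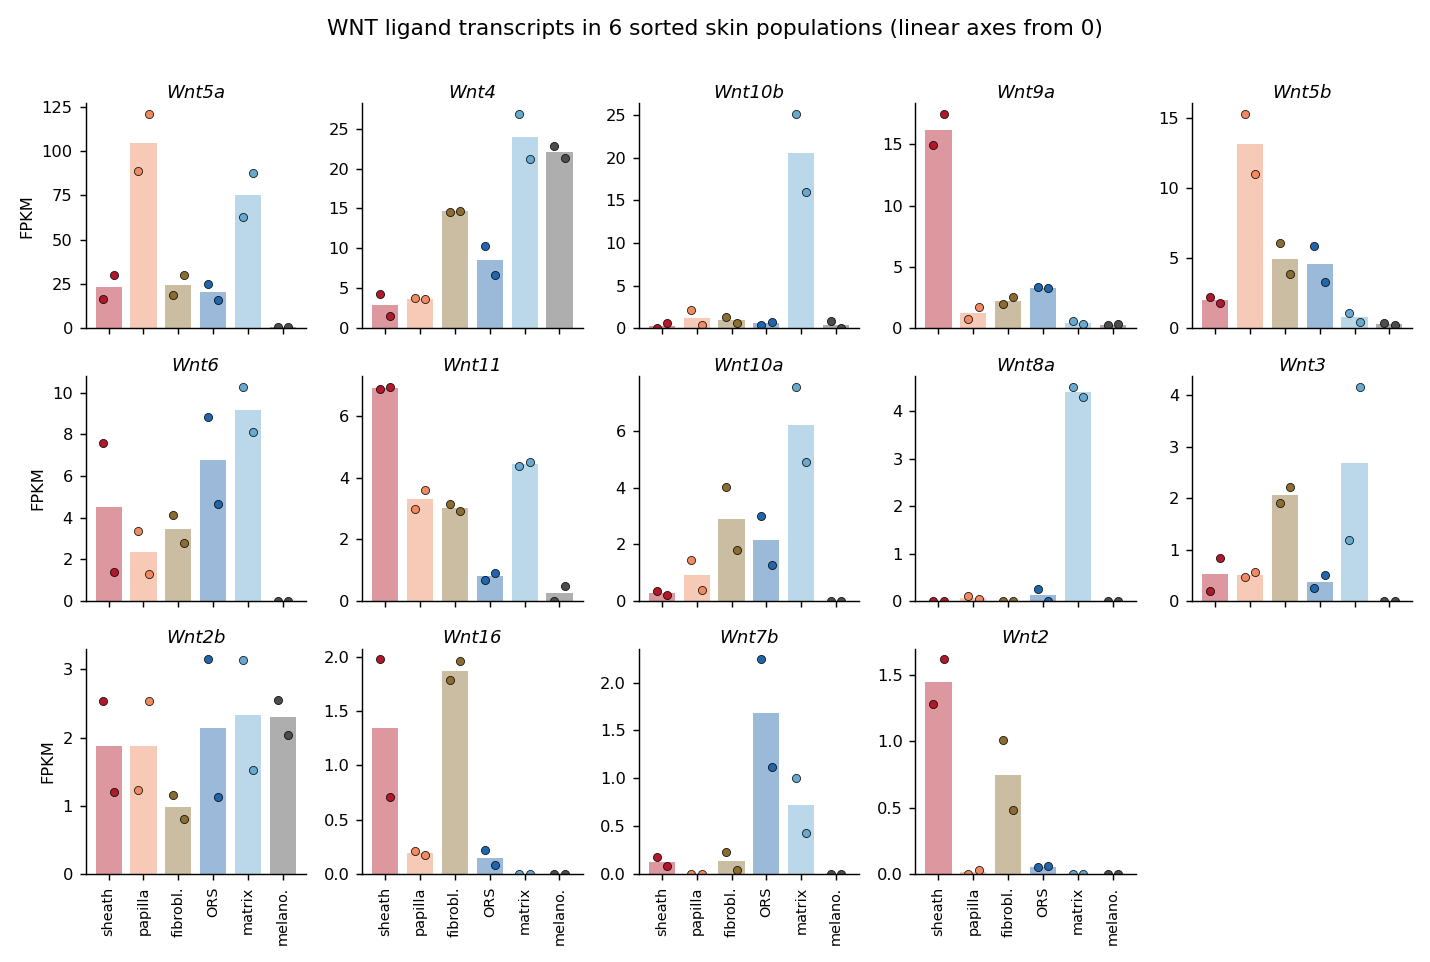
Each panel shows 1 of the 14 ligands that reached a mean of 1 FPKM in some population (y axis, FPKM on a linear scale from 0; x axis, the 6 populations, with ORS for outer root sheath). Bars are means and points the 2 libraries: Wnt9a stands alone in sheath at 14.95 and 17.5 FPKM, Wnt5b peaks in papilla, and Wnt10b and Wnt8a stand alone in matrix.

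Of the secretion genes, Porcn (chrX:8193848-8206525, minus strand), the acyltransferase that every WNT ligand is thought to need, was at 33.7 and 30.7 FPKM in dermal sheath, 13.8 and 11.2 in papilla, 11.6 and 9.28 in fibroblasts, 18.98 and 13.3 in outer root sheath, 13.6 and 8.96 in matrix, and 10.1 and 3.56 in melanocytes. Both sheath libraries lay above all others. Sheath exceeded fibroblasts (log2 1.54 ± 0.39, adjusted p = 0.019) and papilla (log2 1.30 ± 0.39, adjusted p = 0.0415), but these calls were lost in 4 and 8 of the 12 fits that each left out 1 library. Wls, the ligand carrier, was among the most even members, at 23.9 and 37.2 FPKM in dermal sheath, 28.8 and 38.6 in papilla, 38.6 and 59.9 in fibroblasts, 26.6 and 36.2 in outer root sheath, 31.8 and 35.9 in matrix, and 32.3 and 40.1 in melanocytes. All populations overlapped at least 1 other. None of the 15 pairs of populations was called in limma, against 27.8% of all gene-by-pair results. In that fit, which has no replicate term, 1 pair had an unadjusted p under 0.05. Replicate 2 was above replicate 1 in all 6 populations, and within each replicate number fibroblasts were highest. With the replicate block Wls was called in none of the 7 comparisons.

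Among the 10 frizzleds, Fzd1 was the most abundant in every library. It stood at 79.6 and 61.8 FPKM in dermal sheath, 127 and 102 in papilla, 41.8 and 44.2 in fibroblasts, 173 and 141 in outer root sheath, 124 and 83.9 in matrix, and 52.8 and 100.4 in melanocytes. Fibroblasts were lowest without overlap and outer root sheath highest. Papilla exceeded fibroblasts (log2 1.39 ± 0.31, adjusted p = 0.00984), a call lost without papilla replicate 1 or fibroblast replicate 1. Its close relatives Fzd7 and Fzd2 had different orders, and of these only Fzd7 was called between mesenchyme and epithelium. Fzd7 was at 29.4 and 25.0 FPKM in dermal sheath, 23.0 and 17.7 in papilla, 13.3 and 12.9 in fibroblasts, 134 and 97.5 in outer root sheath, 74.9 and 54.0 in matrix, and 43.8 and 40.7 in melanocytes. The epithelial libraries were above all dermal ones, with melanocytes between, and mesenchyme (the mean of sheath, papilla and fibroblasts) was below epithelium (the mean of outer root sheath and matrix) (log2 -2.08 ± 0.16, adjusted p = 8.82e-07). Fzd2 was at 36.4 and 37.6 FPKM in dermal sheath, 45.9 and 27.3 in papilla, 26.6 and 24.1 in fibroblasts, 30.9 and 26.7 in outer root sheath, 16.7 and 11.5 in matrix, and 0.541 and 0.262 in melanocytes. Papilla overlapped outer root sheath, sheath lay above outer root sheath and fibroblasts just below it, matrix was lower, and melanocytes were under 1 FPKM.

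Fzd5 (chr1:64730558-64737751, minus strand) showed the largest lineage difference of the members. It was at 2.79 and 3.30 FPKM in dermal sheath, 3.36 and 3.14 in papilla, 3.29 and 1.67 in fibroblasts, 55.1 and 56.4 in outer root sheath, 54.6 and 55.3 in matrix, and 4.61 and 2.95 in melanocytes. The 4 epithelial libraries lay within 2 FPKM of each other and the other 8 did not exceed 4.61 FPKM. Mesenchyme was below epithelium (log2 -3.86 ± 0.19, adjusted p = 3.07e-08), while outer root sheath and matrix were not distinguishable (0.02 ± 0.29, adjusted p = 1; 95% confidence interval -0.62 to 0.66). A putative transcript on the opposite strand overlaps 17.83% of its exon bases. Fzd6, which orients hair follicles in mouse skin, followed the same split at 1.82 and 2.15 FPKM in dermal sheath, 1.99 and 2.56 in papilla, 6.74 and 8.28 in fibroblasts, 25.1 and 32.8 in outer root sheath, 20.7 and 23.8 in matrix, and 10.9 and 11.9 in melanocytes. Epithelial libraries were highest, sheath and papilla lowest, and mesenchyme was below epithelium (log2 -2.59 ± 0.16, adjusted p = 2.1e-07). Its fibroblast level lay between those of papilla and melanocytes.

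Fzd10 (chr5:128600844-128604093, plus strand) instead joined papilla to matrix. It was at 1.37 and 1.97 FPKM in dermal sheath, 21.3 and 14.4 in papilla, 1.74 and 2.64 in fibroblasts, 11.1 and 4.77 in outer root sheath, 19.5 and 26.5 in matrix, and 0.682 and 0.287 in melanocytes. Papilla and matrix overlapped, outer root sheath came next, and sheath and fibroblasts overlapped near 2 FPKM. Sheath was below papilla (log2 -2.81 ± 0.38, adjusted p = 0.000375) and papilla exceeded fibroblasts (log2 2.56 ± 0.38, adjusted p = 0.000757). Papilla and matrix were not distinguishable (-0.36 ± 0.38, adjusted p = 0.479; 95% confidence interval -1.20 to 0.49). Fzd4, the frizzled that also binds the non-WNT ligand norrin, had another order, at 7.80 and 8.26 FPKM in dermal sheath, 1.62 and 1.43 in papilla, 4.33 and 3.05 in fibroblasts, 9.61 and 16.5 in outer root sheath, 2.22 and 1.51 in matrix, and 0.106 and 0.487 in melanocytes. Outer root sheath and sheath were highest, and papilla and matrix overlapped below 2.3 FPKM. Sheath exceeded papilla (log2 1.84 ± 0.32, adjusted p = 0.00183) and outer root sheath exceeded matrix (log2 2.26 ± 0.32, adjusted p = 0.00163).

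Fzd3, a partner of Fzd6 in planar polarity, was at 1.88 and 3.34 FPKM in dermal sheath, 4.42 and 7.29 in papilla, 3.27 and 5.68 in fibroblasts, 4.16 and 5.50 in outer root sheath, 5.80 and 6.51 in matrix, and 6.91 and 13.4 in melanocytes. Melanocytes had the highest mean, but their lower library was below the higher papilla library. Replicate 2 was the higher library in every population, and within each replicate number melanocytes were highest. Only 2 of the 15 pairs of populations were called for Fzd3. Fzd8 peaked in sheath at 5.29 and 4.55 FPKM, with at most 2.90 FPKM in any other library. Sheath exceeded fibroblasts (log2 1.46 ± 0.31, adjusted p = 0.00678) and outer root sheath (log2 1.61 ± 0.31, adjusted p = 0.00145). The first of these calls was lost without sheath replicate 1 or fibroblast replicate 2. Fzd9 stayed under 1 FPKM and was not tested.

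Of the LRP co-receptors, which share the task of relaying the beta-catenin signal, Lrp6 was at 35.2 and 61.5 FPKM in dermal sheath, 24.7 and 39.96 in papilla, 14.1 and 24.2 in fibroblasts, 39.8 and 52.6 in outer root sheath, 31.5 and 38.4 in matrix, and 27.8 and 40.9 in melanocytes. Replicate 2 was the higher library in all 6 populations, and fibroblasts had the lowest mean. Sheath exceeded fibroblasts (log2 1.29 ± 0.36, adjusted p = 0.0341), a call lost without sheath replicate 2 or fibroblast replicate 1. It was also lost without the filter and with the 6 dermal libraries alone, and kept with the replicate block in limma (adjusted p = 0.000284). Lrp5 was at 21.7 and 14.9 FPKM in dermal sheath, 18.3 and 11.8 in papilla, 9.85 and 5.93 in fibroblasts, 18.4 and 14.6 in outer root sheath, 17.2 and 11.6 in matrix, and 5.94 and 3.25 in melanocytes. Fibroblasts and melanocytes lay below every other library, and replicate 1 was the higher library in all 6 populations.

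Ror2, the receptor kinase that binds Wnt5a, was at 12.1 and 7.69 FPKM in dermal sheath, 15.1 and 10.1 in papilla, 11.4 and 6.05 in fibroblasts, 4.49 and 3.20 in outer root sheath, 4.62 and 3.77 in matrix, and 0 and 0.0265 in melanocytes. The 6 dermal libraries lay above the 4 epithelial ones, and melanocytes were at or near 0. Mesenchyme exceeded epithelium (log2 1.14 ± 0.23, adjusted p = 0.00112). Ror1, its paralogue, was at 1.88 and 1.25 FPKM in dermal sheath, 0.520 and 0.872 in papilla, 4.55 and 5.50 in fibroblasts, 8.26 and 3.98 in outer root sheath, 2.32 and 0.734 in matrix, and 0.594 and 0.449 in melanocytes. Outer root sheath and fibroblasts overlapped at the top and the other populations were at most 2.32 FPKM. Papilla was below fibroblasts (log2 -1.83 ± 0.37, adjusted p = 0.00537), a call lost without papilla replicate 1. Ryk, an atypical receptor kinase, was at 23.7 and 37.1 FPKM in dermal sheath, 34.4 and 43.5 in papilla, 28.4 and 37.6 in fibroblasts, 65.6 and 45.04 in outer root sheath, 42.0 and 38.7 in matrix, and 22.3 and 21.9 in melanocytes. Outer root sheath was highest and melanocytes lowest, both without overlap, the populations between them overlapped, and 1 of 15 pairs was called.

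**Figure D3:**
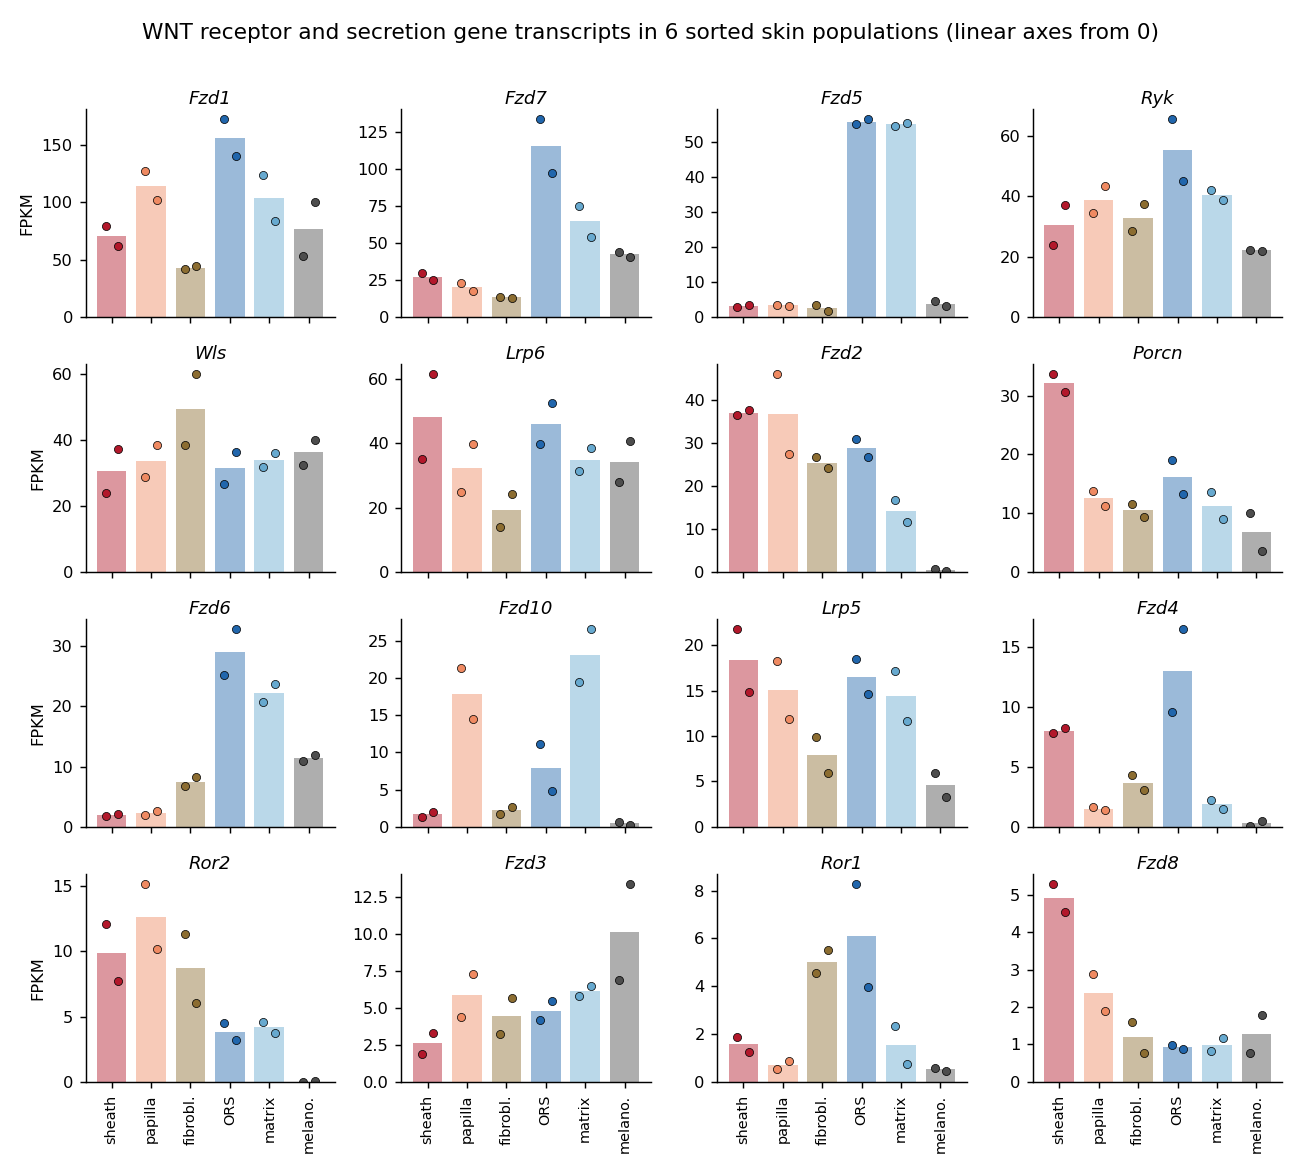
Each panel shows 1 of 16 receptor or secretion genes (y axis, FPKM on a linear scale from 0; x axis, the 6 populations, with ORS for outer root sheath). Bars are means and points the 2 libraries: Fzd5 and Fzd6 are highest in both epithelial populations, Fzd10 in matrix and papilla, and Ror2 in the 3 dermal populations.

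The comparison of dermal sheath with fibroblasts addresses what sets the sheath apart from other dermal cells. A gene was called where its adjusted p was under 0.05 and its log2 difference at least 1 in size. Sheath was higher for 4 of the 30 members tested (Wnt9a, Porcn, Fzd8 and Lrp6), or 13.3%, beside 7.07% of all genes, and lower for 4 (Wnt4, Wnt10a, Fzd6 and Ror1) beside 6.37%. The largest differences were Wnt9a at 2.40 ± 0.29, adjusted p = 0.00015 and Wnt4 at -2.11 ± 0.35, adjusted p = 0.00145, and the median log2 difference was 0.02 over the 30 tested members and -0.03 over all 13974 genes tested. Of the 58 tested genes of the wider pathway list, 8 were higher and 14 lower, led by Tnfrsf19 (log2 -4.18, a receptor induced by WNT signalling) and Axin2 (log2 -3.72, a feedback inhibitor). Wnt9a, Wnt4 and Fzd6 were called whichever library was left out, while Ror1 was lost in 8 of the 12 such fits. Melanocyte subtraction ended the Fzd6 call with and without rescaling, that of Wnt4 without it and that of Porcn with it. With the replicate number as a block, Lrp5 (log2 1.13, adjusted p = 0.00101) and Wnt3 (log2 -1.04, adjusted p = 0.0334) were also called. The number called was 4 without sheath replicate 1 or fibroblast replicate 1, and 5 without sheath replicate 2 or fibroblast replicate 2.

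Against papilla, sheath was higher for 4 members (Wnt9a, Fzd4, Porcn and Wnt2) beside 7.41% of all genes and lower for 3 (Wnt5a, Wnt5b and Fzd10) beside 7.18%. Wnt2 would not have been tested without its sheath level, so its call is a description. The papilla members are the ligands Wnt5a and Wnt5b and a frizzled, and the median log2 difference was -0.02 over the 30 tested members and -0.09 over all 13974 genes tested. Of the wider list, 7 were higher and 23 lower, led by Rspo4 (log2 -5.75, a secreted amplifier of WNT signals) and Notum (log2 -4.99, an extracellular enzyme that removes the lipid from WNT ligands). Porcn was the only call lost in a fit that left out 1 library, in 8 of 12.

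Papilla against fibroblasts gave 4 members higher in papilla (Wnt5a, Wnt5b, Fzd1 and Fzd10) beside 7.5% of all genes and 4 lower (Wnt4, Wnt16, Fzd6 and Ror1) beside 6.68%. Wnt16 would not have been tested without its fibroblast level, so its call is a description. Fzd10 and Wnt5a had the largest differences, 2.56 ± 0.38, adjusted p = 0.000757 and 2.07 ± 0.35, adjusted p = 0.00179, and the median log2 difference was 0.17 over the 30 tested members and 0.05 over all 13974 genes tested. Of the wider list, 16 were higher and 7 lower before melanocyte subtraction, led by Sfrp1 (log2 7.28, a secreted frizzled-like inhibitor) and Sostdc1 (log2 6.48, a secreted inhibitor). The number of members called was 5 without papilla replicate 1, when Fzd1, Ror1 and Wnt5b were lost. With the replicate block, Wnt10a (log2 -1.03, adjusted p = 0.0216) and Wnt3 (log2 -1.02, adjusted p = 0.0343) were also called lower. Melanocyte subtraction ended the Wnt4 and Fzd6 calls with and without rescaling, and that of Wnt5b with it. The 3 dermal comparisons share libraries, so they are not independent of each other.

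Within the epithelium, outer root sheath was higher than matrix for 4 members (Fzd4, Ror1, Wnt5b and Wnt9a) beside 4.59% of all genes and lower for 6 (Wnt10b, Wnt8a, Wnt5a, Wnt11, Wnt4 and Fzd10) beside 2.51%. With the replicate block, Wnt10a (log2 -1.23, adjusted p = 0.0157) and Wnt3 (log2 -1.30, adjusted p = 0.0189) were also called lower. Wnt8a entered the tests only through its matrix level, so its calls against matrix are a description. The largest difference in each direction was that of Wnt10b (-3.75 ± 0.45, adjusted p = 0.000692) and that of Fzd4 (2.26 ± 0.32, adjusted p = 0.00163), and the median log2 difference was 0.05 over the 30 tested members and -0.03 over all 13974 genes tested. Of the wider list, 10 were higher and 11 lower, led by Nkd2 (log2 -3.59, an intracellular inhibitor) and Lgr5 (log2 3.50, an R-spondin receptor and stem cell marker). Fzd4, Wnt10b and Wnt11 were called whichever library was left out, and the number called was 3 without matrix replicate 2.

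Papilla and the matrix it touches differed for 12 members. Papilla was higher for 3 (Wnt5b, Fzd2 and Ror2) beside 22.3% of all genes and lower for 9 (Wnt10b, Wnt4, Wnt8a, Wnt10a, Wnt6, Wnt3, Fzd5, Fzd6 and Fzd7) beside 16.5%. Fzd5 had the largest difference (log2 -3.72 ± 0.29, adjusted p = 2.42e-06), and the median log2 difference was -0.16 over the 30 tested members and 0.06 over all 13974 genes tested. In the fit without a replicate term, Wnt5a and Fzd10 were not distinguishable between these neighbours, though Wnt5a was higher in papilla within each replicate number. Of the wider list, 25 were higher and 10 lower, led by the R-spondins Rspo3 and Rspo4 (log2 8.39 and 8.29), the first at 524 ± 126 FPKM (SD, n = 2) in papilla and 0.629 ± 0.732 in matrix. Fzd2, Ror2, Wnt3, Wnt6 and Wnt8a each lost their call in 1 to 3 of the 12 fits that left out 1 library.

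Dermal sheath and the outer root sheath it wraps differed for 14 members, of which 5 were higher in sheath (Wnt9a, Wnt11, Fzd8, Wnt2 and Ror2) beside 20.3% of all genes and 9 lower (Fzd5, Fzd6, Fzd7, Fzd10, Fzd1, Ror1, Wnt4, Wnt10a and Wnt7b) beside 16.6%. Wnt2 needed its sheath level, and Wnt7b its outer root sheath level, to be tested, so both calls are descriptions. Of the 9 lower members, 5 were frizzleds, with Fzd5 at -3.81 ± 0.29, adjusted p = 1.98e-06. Here the median log2 difference was -0.23 over the 30 tested members and 0.02 over all 13974 genes tested. Of the wider list, 23 were higher and 14 lower, led by Gpc3 (log2 5.41, a cell surface proteoglycan) and Rspo3 (log2 5.07). Without outer root sheath replicate 1 the number called was 9.

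Dermal mesenchyme as a whole was higher than follicle epithelium for 2 members (Ror2 and Wnt5b) beside 20.8% of all genes and lower for 9 (Fzd5, Fzd6, Fzd7, Fzd10, Wnt10b, Wnt8a, Wnt4, Wnt10a and Wnt6) beside 15.4%. No frizzled was called higher in mesenchyme and 4 of 9 tested were lower. In this comparison the median log2 difference was -0.38 over the 30 tested members and 0.07 over all 13974 genes tested, and of the wider list 19 were higher and 9 lower, led by Rspo1 and Rspo3 (log2 5.96 and 5.69). Summed over the 10 frizzleds, levels were 443 and 382 FPKM in outer root sheath and 319 and 264 in matrix, above the highest dermal library (232). The Wnt5b call was lost in 5 of the 12 fits that left out 1 library. The protocol in the labels speaks of barcoding 3 samples with 2 replicates at a time without saying which, and if the 6 dermal libraries were prepared together, preparation and tissue cannot be told apart here.

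**Figure D4:**
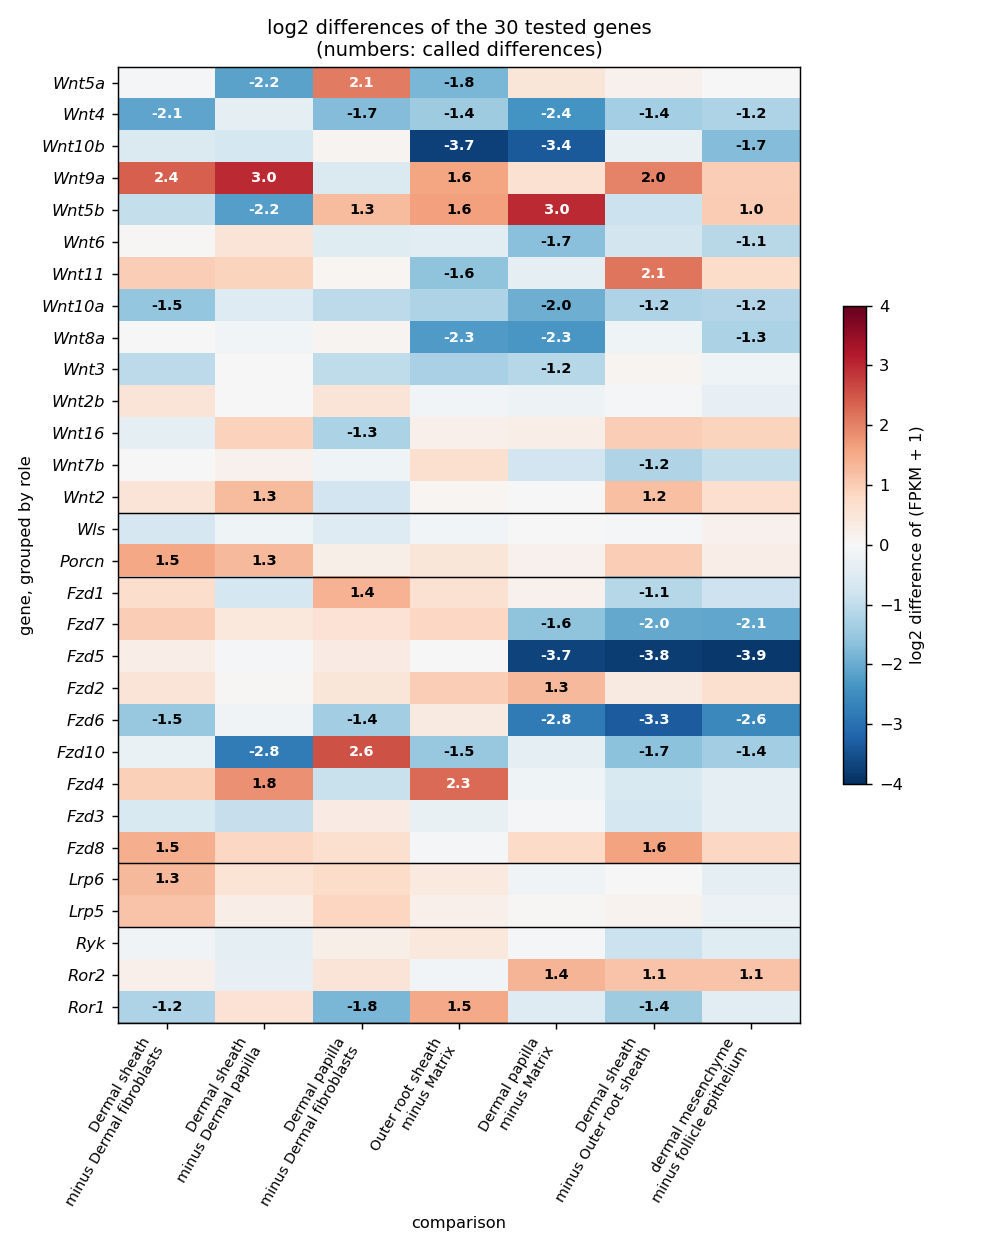
Colours give the log2(FPKM + 1) difference of the 30 tested members (rows, grouped by role) in the 7 comparisons (columns), red where the population named first is higher and blue where it is lower. Numbers mark called differences, from -3.9 for Fzd5 in mesenchyme minus epithelium to 3.0 for Wnt9a in sheath minus papilla and for Wnt5b in papilla minus matrix.

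Over all pairs of populations, Wnt9a was higher in sheath than in each of the other 5 populations, beside 3.38% of all genes. Wnt5b was so in papilla beside 3.21%, and Wnt10b in matrix beside 1.14%. Wnt8a also met the rule in matrix, through which alone it had been tested. No member was so in fibroblasts (1.07% of all genes), outer root sheath (1.16%) or melanocytes (2.76%) in the limma fit, nor when an unadjusted p under 0.05 took the place of the adjusted one, but Wnt16 was so in fibroblasts after melanocyte subtraction with rescaling. Wnt16 needed its fibroblast level to be tested, so that call is a description. Wnt9a and Wnt10b kept this place whichever library was left out. Wnt5b lost it without either papilla library, fibroblast replicate 2 or outer root sheath replicate 2, with a pseudocount of 0.1 or 5 in place of 1 FPKM, and after melanocyte subtraction with rescaling, and Wnt8a was no longer tested with only 1 matrix library. In the other direction, Wnt5a, Wnt6, Fzd2 and Ror2 were lower in melanocytes than in each of the other 5 populations, beside 2.70% of all genes (a comparison added after the data were seen). Wnt6 lost this place without sheath, papilla or fibroblast replicate 1 or either melanocyte library, without the filter, with quantile normalization, with a pseudocount of 5 FPKM and after rescaling. Fzd2, Ror2 and Wnt5a kept it whichever library was left out. Both melanocyte libraries were at 0 for Wnt6 and at most 0.0265 FPKM for Ror2. Of the 15 pairs, 11 were called for each of Wnt5a, Fzd6 and Fzd10, and 0 to 2 for Wls, Wnt2b, Ryk, Lrp6 and Fzd3.

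Because the fibroblast libraries carried melanocyte transcripts, the melanocyte share was estimated from 7 pigment genes as 48.5% and 46.4% of the melanocyte level and subtracted from every gene, with values below 0 set to 0. The share is a median, and the pigment genes differed in proportion. Tyr was at 232 and 380 FPKM in fibroblasts against 1240 and 1668 in melanocytes, and Mlana at 3369 and 3140 against 5040 and 5033. Wnt3, Wnt5a, Wnt5b, Wnt6, Wnt9a, Wnt10a, Wnt11, Wnt16, Ror1, Ror2, Fzd2 and Fzd4 kept at least 92.5% of their level in both fibroblast libraries. Wnt4 went from 14.6 and 14.7 to 3.88 and 4.44 FPKM, and Fzd6 from 6.74 and 8.28 to 1.21 and 3.00 FPKM. Fzd7 was set to 0 in both libraries, and Lrp6, Fzd3, Fzd5 and Wnt2b in 1 of them. For Fzd7 the amount subtracted (20.5 and 19.6 FPKM) exceeded its fibroblast levels (13.3 and 12.9), so the share was too high for this gene. The same holds for Lrp6 in replicate 1 (16.7 subtracted from 14.1 FPKM) and for Fzd3 there (4.92 from 3.27). Since the same share serves every gene of a library, the levels left for Wnt4, Fzd6 and others may also be too low. Calls ended and differences raised by the subtraction rest on this 1 share.

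Subtraction alone lowers a fibroblast library as a whole. The median log2 difference over all genes moved from -0.03 to 0.88 for sheath minus fibroblasts and from 0.05 to 0.96 for papilla minus fibroblasts. In a version added after the data were seen, the remainder was therefore divided by 1 minus the share, which left these medians at 0.24 and 0.31. For sheath minus fibroblasts, 12 members were higher and 3 lower after subtraction (beside 39.6% and 2.68% of all genes), and 6 higher and 6 lower after rescaling (beside 17% and 6.68%). For papilla minus fibroblasts, 11 were higher and 3 lower after subtraction (beside 43.6% and 3.35%), and 7 higher and 7 lower after rescaling (beside 20.2% and 8.28%). The counts of members called higher therefore stand against a raised background and are no result about the members.

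Of the 8 members called in sheath minus fibroblasts, Wnt9a, Fzd8, Lrp6, Ror1 and Wnt10a were called in both versions. The Wnt9a difference was log2 2.47 after subtraction and 1.78 after rescaling. That of Lrp6 went from log2 1.29 to 3.97 and 3.56, with 1 fibroblast library at 0. Wnt4 was at log2 -0.51 (adjusted p = 0.279) after subtraction and -1.30 (adjusted p = 0.0329) after rescaling, where it was called. Fzd6 was called in neither version, at log2 0.0022 (adjusted p = 0.9995) and -0.66 (adjusted p = 0.197). Porcn was called after subtraction (log2 2.03) and not after rescaling (log2 1.18, adjusted p = 0.0735).

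Of the 8 members called in papilla minus fibroblasts, Wnt5a, Fzd1, Fzd10, Ror1 and Wnt16 were called in both versions. The Wnt5a difference was log2 2.08 after subtraction and 1.18 (adjusted p = 0.0445) after rescaling. That of Fzd1 went from log2 1.39 to 3.97 and 3.14. Wnt4 was called in neither version (log2 -0.13, adjusted p = 0.789, and log2 -0.92, adjusted p = 0.0952), nor was Fzd6 (log2 0.13, adjusted p = 0.749, and log2 -0.53, adjusted p = 0.274). Wnt5b was called after subtraction (log2 1.29) and not after rescaling (log2 0.49, adjusted p = 0.332). Between mesenchyme and epithelium the 11 calls held after subtraction, which added Fzd1 and Fzd3 and moved Fzd7 from log2 -2.08 to -3.36. Rescaling lost Wnt6 and Wnt10a there and added Fzd1, Wnt9a and Wnt16. In comparisons without fibroblasts the differences stayed as they were, but the spread is estimated over all 12 libraries and the adjusted p moved. Porcn in sheath minus papilla (adjusted p = 0.0768 and 0.0934) and Fzd10, Ror1 and Wnt4 in outer root sheath minus matrix (0.0508 to 0.0794) were called in neither version. Wnt6 in papilla minus matrix (adjusted p = 0.0503) and Fzd1 and Wnt10a in sheath minus outer root sheath (0.0517 and 0.0531) were lost with rescaling alone.

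**Figure D5:**
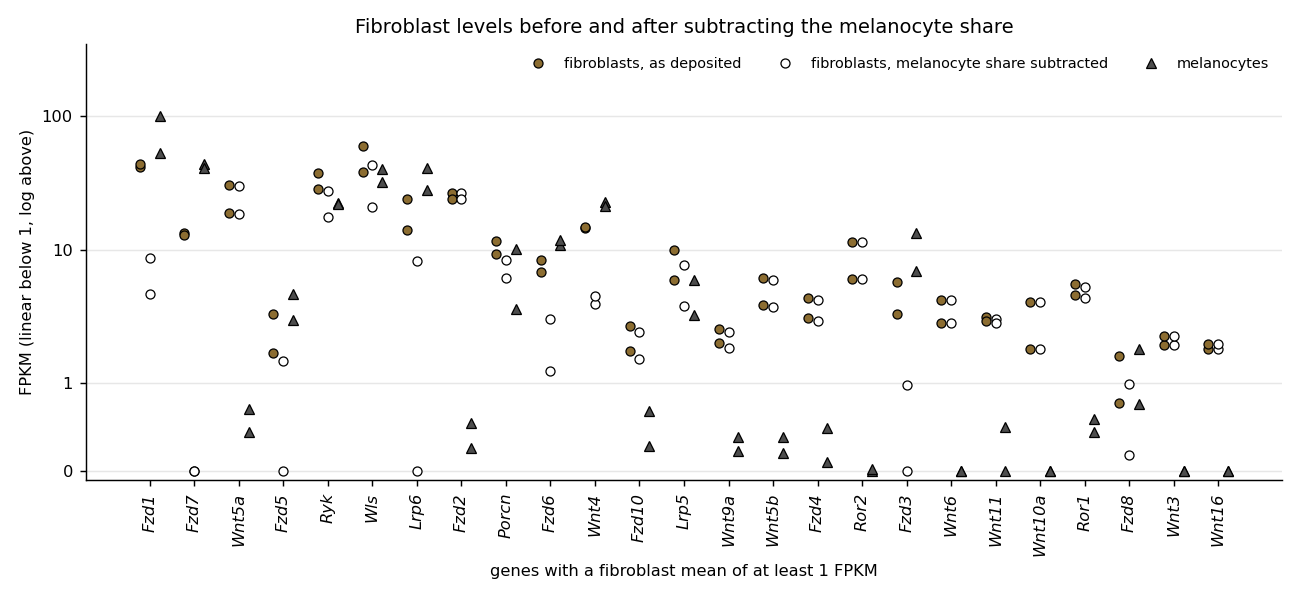
Fibroblast levels of the 25 members with a fibroblast mean of at least 1 FPKM are shown as deposited (filled circles) and after subtraction (open circles), beside both melanocyte libraries (triangles); the y axis is FPKM, linear below 1 and logarithmic above. Wnt5a, Ror1 and Ror2 keep their place, while Wnt4 and Fzd6 drop and Fzd7 reaches 0; the open circles are before rescaling.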

How the data were processed

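The authors deposited 1 table of FPKM values with 12 columns, 1 for each library. The unit was inferred from the tools named and from the values. Per the labels' protocols, RNA of sorted cells was amplified with the Ovation V2 system before library preparation. TopHat2 2.0.3, Bowtie2, Cufflinks 2.1.1 and mm10 are named in the submitters' processing notes. The annotation and strand use are not given in the sources used here. Total counts were not given, so depth and counting error are unknown.

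A single limma model (version 3.58.1 under R 4.3.3) was fitted to log2(FPKM + 1) of all 12 libraries, with moderated variances that follow the mean level and 6 residual degrees of freedom. To be tested, a gene had to reach 1 FPKM in 2 or more libraries (13974 did and 5176 did not), among them 30 of the 36 members. Fzd9, Wnt1, Wnt3a, Wnt7a, Wnt8b and Wnt9b were not tested. P-values are two-sided and Benjamini-Hochberg adjusted within a comparison. The fit was tested on simulated data. The melanocyte share of a fibroblast library was the median, over 7 pigment genes, of its FPKM divided by the melanocyte mean, and values below 0 after subtraction were set to 0. Members with a mean of at least 5 FPKM in some population are given in every library, and up to 4 called genes of the wider list could be named by size of difference. The members and lists were chosen with earlier results of these data known. No 2 libraries held identical values.

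Replicate numbers came from the titles and descriptions, and no label says what they share. Across 13974 genes, the deviations of same-numbered libraries correlated in all 15 pairs of populations (r from 0.19 to 0.54), so the numbers were taken to pair the libraries, on the evidence of the data and not of the labels. The fit behind the printed values has no replicate term, and the block was an alternative. Alternatives were pseudocounts of 0.1 and 5 FPKM, no filter on low values, quantile normalization, a replicate block, each library left out, melanocyte subtraction, the 6 dermal libraries alone, mesenchyme as sheath and papilla alone and, chosen after seeing the data, both fibroblast libraries left out and the subtracted fibroblast libraries divided by 1 minus the share. Coordinates are from GENCODE M21 on GRCm38.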

Additional observations from a re-analysis of the deposited data

How the results depend on the processing

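Of the 70 called differences of the members in the 7 comparisons, 69 held with quantile normalization, 63 without the filter, 63 with a pseudocount of 0.1 and 35 with a pseudocount of 5 FPKM, which shrinks the differences of low genes. With a pseudocount of 5 FPKM the number of members called was 4 for sheath minus fibroblasts, 4 for papilla minus fibroblasts, 5 for outer root sheath minus matrix, 7 for papilla minus matrix, 6 for sheath minus outer root sheath and 4 for mesenchyme minus epithelium, and 2 members were higher in 1 population than in the other 5. With a pseudocount of 0.1 FPKM, 6 members were called for outer root sheath minus matrix. Members lower in 1 population than in the other 5 numbered 8 with a pseudocount of 0.1, 2 with a pseudocount of 5 and 10 with melanocyte RNA subtracted, 6 of them in fibroblasts, and 7 after rescaling. The share of all genes is not given for these settings, and subtraction lowers the fibroblast libraries as a whole. These counts are therefore no result about the members. Subtraction gave 15 calls for sheath minus fibroblasts and 14 for papilla minus fibroblasts. It left Fzd6 near 0 and uncalled in both, with the sign changed (log2 0.0022 and 0.13), and lost 6 other calls. Rescaling changed the sign of none and lost 14 of the 70, with 14 calls for papilla minus fibroblasts. With 1 library left out at a time the calls ranged from 4 to 9 (sheath minus fibroblasts), 5 to 9 (papilla minus fibroblasts), 3 to 10 (outer root sheath minus matrix) and 9 to 15 (sheath minus outer root sheath). The replicate block, with the numbers as pairs, lost none of the 70 calls; it gave 10, 10 and 12 calls for sheath minus fibroblasts, papilla minus fibroblasts and outer root sheath minus matrix, adding Wnt3 to all of them, Lrp5 to the first and Wnt10a to the others. Quantile normalization moved the median of all genes from 0.06 to -0.09 for papilla minus matrix, from 0.07 to -0.07 for mesenchyme minus epithelium and from 0.02 to -0.09 for sheath minus outer root sheath. With the 6 dermal libraries alone 22 of 23 calls held, and with sheath and papilla alone as mesenchyme all 11 calls held. The causes of these differences between settings were not tested. With 2 libraries a population and no read counts, differences of low ligands are the least certain.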

Other observations

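Some members followed the replicate number in every population. Replicate 1 was above replicate 2 in 6 of 6 populations for Fzd7, Lrp5, Porcn and Wnt5b, and below it in 6 of 6 for Fzd3, Fzd6, Lrp6 and Wls. Lrp5 and Lrp6, the paired co-receptors, thus moved in opposite directions between replicates: from 21.7 to 14.9 FPKM and from 35.2 to 61.5 FPKM in sheath. Deviations of same-numbered libraries correlated across the 13974 genes tested (r from 0.19 to 0.54), and how many other genes followed the number in every population was not counted. The pattern is therefore not shown to be particular to the members, and its source was not tested.

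Axin2, a feedback target of WNT signalling in many tissues, was chosen for description after its values were seen. Its mean was 69.4 ± 9.01 FPKM (SD, n = 2) in melanocytes, 56.0 ± 8.63 in fibroblasts, 43.1 ± 0.277 in papilla and 40.9 ± 3.44 in matrix, against 10.1 ± 2.50 in outer root sheath and 3.32 ± 0.732 in sheath. Sheath, where Porcn and Wnt9a peaked, had the lowest mean, and melanocytes, where the 19 ligands summed to 27.2 and 25.3 FPKM, the highest. Other genes of the wider list, also picked after the fact, varied in order. Nkd1 too had its highest mean in melanocytes (77.0 FPKM). Notum had it in papilla (69.4, against 1.76 in melanocytes) and Lgr5 in outer root sheath (97.8, against 0.436 in melanocytes). A relation of Axin2 to ligand levels was not tested. After melanocyte subtraction Axin2 was at 28.5 and 17.7 FPKM in the fibroblast libraries, and after rescaling at 55.3 and 33.1 FPKM.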
